A study of Mus musculus with 9 samples.

Results

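The genes described here are 10 genes that protect, replicate or extend chromosome ends, out of 54986 gene IDs in the expression files. They were chosen by name: the shelterin genes Terf1, Terf2, Terf2ip, Tinf2, Acd, Pot1a and Pot1b, the helicase gene Rtel1, the telomerase gene Tert and the chromatin remodeller gene Atrx. The 10 names occupied 11 entries in each library. Pot1b was listed once on chromosome 17 and once on a separate scaffold, over 60604 bases in each. Expression was measured by RNA-seq in 9 libraries of primary embryonic fibroblasts from C57BL/6 mice, made from total RNA. There were 3 libraries of cells overexpressing Zscan4f, 3 of cells overexpressing Zscan4f3A, a form of Zscan4f by its name, and 3 control libraries whose titles name no overexpressed gene. All 9 libraries, control included, are labelled D4-OSKM-2ndMEFs, so no group without the OSKM label was available, and the control titles name no empty vector. The promoter and delivery of the constructs, the nature of the 3A change and the meaning of D4 are not stated in the sources used here. The study's title concerns the binding of Tet2 to the SCAN domain, the protein interaction domain that gives Zscan4 its name, during reprogramming.

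Mammalian chromosomes end in repeats of TTAGGG that finish in a single-stranded overhang. Shelterin, the protein complex built on these repeats, hides the ends from DNA damage signalling and end joining and controls the access of telomerase, the enzyme that adds repeats. In mouse embryonic stem cells and early embryos, the Zscan4 genes are known for bursts of expression that accompany telomere lengthening by recombination, which is why telomere genes are of interest where Zscan4f is overexpressed.

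Zscan4f itself stood at 570, 565 and 558 TPM in the Zscan4f libraries and at 827, 836 and 654 TPM in the Zscan4f3A libraries, against 0.330, 0.00 and 0.960 TPM in control (TPM, a transcript level corrected for gene length and scaled to an equal total per library). The related loci Zscan4c, Zscan4d and Zscan4e were listed at 0 in Zscan4f3A replicate 3. That library also had the least sequence, about 3.31 gigabases against 6.60 to 8.39 in the other 8 libraries. Its limma quality weight was the lowest too, at 0.41 against 0.99 to 1.36 in the others. The cause of the values of 0 was not tested. None of the 13 fibroblast markers was under 1 TPM in any group, and their summed level was 13931 to 14122 TPM with Zscan4f, 13733 to 14076 with Zscan4f3A and 13849 to 13880 in control. Single markers moved both ways within that sum: with Zscan4f against control 3 of the 13 were higher and 6 lower by limma, beside 8.74% and 9.71% of all tested genes, with Dcn at a log2 change of 0.51 and Pdgfrb at -0.50. With Zscan4f against Zscan4f3A 4 were higher and 4 lower, beside 7.48% and 7.64%, and with Zscan4f3A against control 0 were called. The part of these markers in the results below was not tested. The 7 epithelial markers summed to 119 to 126 TPM with Zscan4f, 48.8 to 51.9 with Zscan4f3A and 44.4 to 49.0 in control. Krt8 was the largest part of each sum, with means of 78.5, 23.9 and 20.2 TPM in these groups. Of 6 tested, 5 were called higher with Zscan4f against control, beside 8.74% of all tested genes, and Krt19 was not. The part of the epithelial markers in the results below was not tested. Of 6 macrophage markers 4 were under 1 TPM in all libraries of each group, and their sum was 21.5 to 23.9 TPM with Zscan4f, 15.6 to 17.4 with Zscan4f3A and 14.6 to 17.2 in control. Of 5 endothelial markers 4 were under 1 TPM, and the sums of the 5 were 45.7 to 46.9, 31.7 to 33.3 and 30.1 to 32.7 TPM in the same groups. Nearly all of each sum was Tek, which averaged 45.0, 31.6 and 30.9 TPM. Of 7 pluripotency markers 6, 7 and 7 were under 1 TPM in these groups. The exception was Nanog, at 1.01, 0.759 and 1.96 TPM with Zscan4f. It stood at 0.525, 0.288 and 0.458 TPM with Zscan4f3A, against 0.311, 0.400 and 0.421 TPM in control. Nanog was too low in too many libraries to be tested. In bulk RNA, fewer cells of a type and less RNA per cell cannot be told apart. The labels do not say whether replicates are separate cultures, so p-values measure only the spread between these libraries, which may be technical.

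With Zscan4f, Terf2 was the only member called against control, beside 9.71% of all tested genes called lower. It averaged 24.8 TPM, against 31.0 with Zscan4f3A and 31.6 in control. The call held in 13 of 18 processing alternatives. Terf1, the sister gene of Terf2, did not pass the test. With Zscan4f3A no member passed the test against control, beside 0.0316% of all tested genes that did. Pot1b, summed over its entries, was also lowest with Zscan4f, at 5.11 TPM against 5.97 with Zscan4f3A and 6.71 in control. The level of Pot1a was highest with Zscan4f3A. Neither Pot1b nor Pot1a passed the test after adjustment over all genes. Tert, Rtel1, Atrx, Terf2ip, Tinf2 and Acd had overlapping values in all 3 groups.

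The order of the members by level was similar in the 3 groups. Atrx was the highest, at 73.6 ± 3.54 TPM with Zscan4f, 75.7 ± 11.1 with Zscan4f3A and 75.9 ± 10.5 in control (SD, n = 3 each), above 84.5%, 85.0% and 85.1% of the 15837 genes tested in those groups. Terf2ip, Terf2, Acd and Rtel1 followed in that order, between 21.6 and 35.7 TPM. Terf1, Tinf2 and Pot1a lay between 13.95 and 17.1 TPM in every group, close to the middle of the tested genes, and neighbours among them did not differ beyond their spread. Tert and Pot1b were the lowest, and their order was not the same in the groups: the Tert mean was above the Pot1b mean, summed over its entries, with Zscan4f and with Zscan4f3A, where their ranges overlapped, while in control Pot1b lay above Tert without overlap. Terf2 stood apart from Acd in control and overlapped with it with Zscan4f and with Zscan4f3A.

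**Figure D1:**
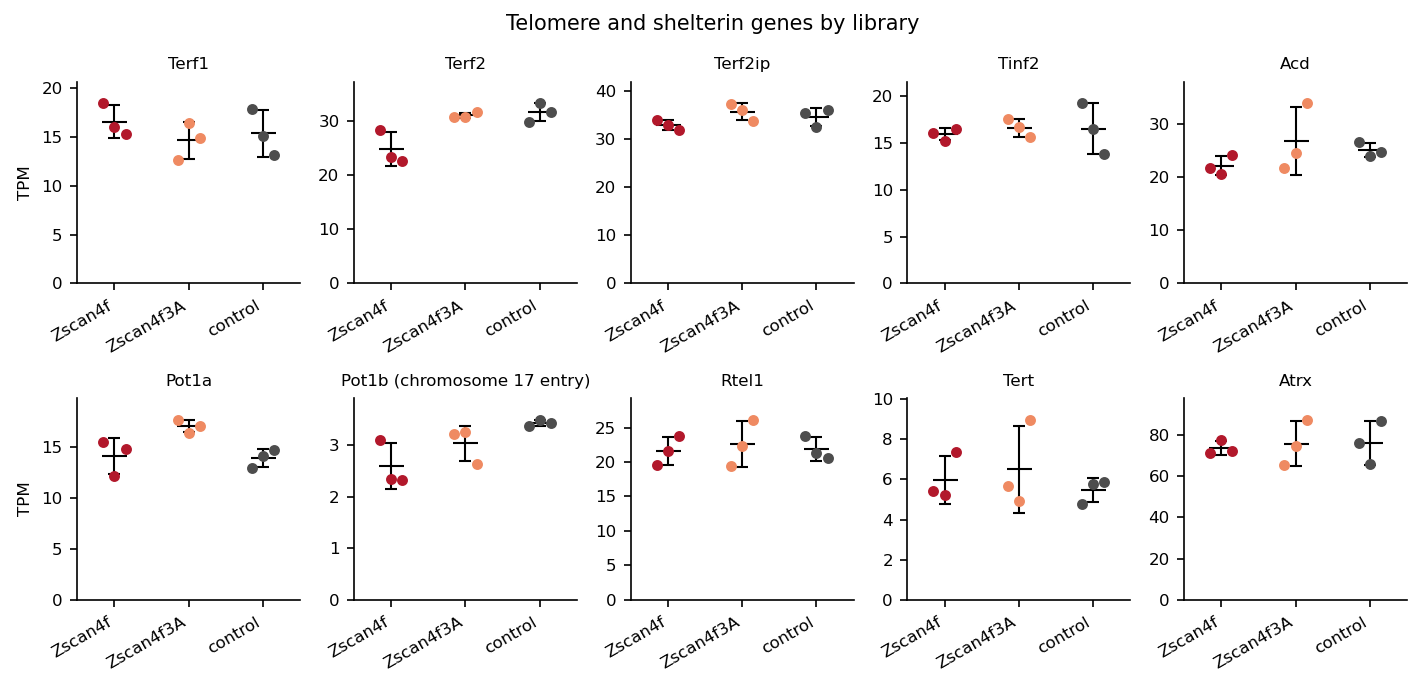
The level of each gene in TPM (vertical axis, starting at 0) is plotted by group, with 1 point per library and the mean ± SD of 3 libraries. Terf2 in the Zscan4f libraries, at 22.6 to 28.3 TPM, lies below all libraries of the other groups. The points of Tert and Acd spread widely with Zscan4f3A, and those of Atrx do so both with Zscan4f3A and in control.

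Pot1a and Pot1b are sequence relatives, so the stretches of coding sequence that tell them apart are shown before their values. Mouse has a pair of POT1 genes where human has a single gene. The reading frames of Pot1a and Pot1b are both 1923 bases long and are identical at 78.9% of 1920 aligned positions. The longest run without a difference is 41 bases, and 0 stretches of 50 bases are shared, whereas Terf1 and Terf2 are identical at 58.8% of 1244 aligned positions, with a longest run of 17. The first 150 coding bases, from the GENCODE M21 transcripts on GRCm38, are printed 5′ to 3′ with the 25 differing positions in capitals.
Pot1a: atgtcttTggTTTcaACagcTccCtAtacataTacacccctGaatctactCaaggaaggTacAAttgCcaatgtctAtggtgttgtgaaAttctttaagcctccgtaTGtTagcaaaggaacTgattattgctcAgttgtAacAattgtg
Pot1b: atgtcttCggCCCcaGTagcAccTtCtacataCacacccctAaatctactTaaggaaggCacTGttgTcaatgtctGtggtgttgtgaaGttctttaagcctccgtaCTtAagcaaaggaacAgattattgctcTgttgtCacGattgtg

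Promoters were read because Zscan4 proteins bind DNA. The windows were 300 bases each, 250 before and 50 after the RefSeq start on GRCm38.p6, and 9 of the 10 members had an entry, with 11 starts in all. The sequence TGCACAC, known as a binding sequence of mouse Zscan4, was searched on both strands together with the telomere repeat TTAGGG, which does not overlap it. TGCACAC was in 0 of the 11 windows and in 4.40% of all 32851 promoters. TTAGGG was in 2 of the 11, both of them starts of Pot1b, and in 10.6% of all promoters. The Pot1b windows, 55712575 to 55712874 and 55712587 to 55712886, largely overlap. The 2 matches are thus the same site, and their share of the 11 windows is not that of separate matches. The windows of the Terf2 starts overlap in the same way. A match is a description of letters and not of binding. The 250 bases before the start are printed for Terf2, the member that was called, and for Pot1b, whose match is in capitals. Each is given on the minus strand of the reference, 5′ to 3′.
Terf2, chr8:107096549-107096798: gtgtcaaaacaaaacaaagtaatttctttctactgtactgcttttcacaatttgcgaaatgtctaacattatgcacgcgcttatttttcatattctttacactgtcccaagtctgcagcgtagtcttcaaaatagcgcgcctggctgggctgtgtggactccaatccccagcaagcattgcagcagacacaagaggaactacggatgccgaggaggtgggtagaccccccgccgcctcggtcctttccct
Pot1b, chr17:55712637-55712886: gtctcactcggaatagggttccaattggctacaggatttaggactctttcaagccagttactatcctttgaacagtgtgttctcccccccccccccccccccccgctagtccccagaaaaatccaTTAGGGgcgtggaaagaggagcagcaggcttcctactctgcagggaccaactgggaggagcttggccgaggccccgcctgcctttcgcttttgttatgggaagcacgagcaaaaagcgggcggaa
The member windows held 7 to 24 CpG sites each, and the Terf2 window held 18, against a median of 7 over all promoters.

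Terf2 (ENSMUSG00000031921.17, chromosome 8, 107069400 to 107096547, minus strand, GRCm38) encodes TRF2, which binds the duplex repeats and is needed to fold the end into a loop and to block end joining. It stood at 28.3, 23.4 and 22.6 TPM in the Zscan4f libraries and at 30.7, 30.7 and 31.6 TPM in the Zscan4f3A libraries, against 29.9, 33.2 and 31.6 TPM in control. All 3 Zscan4f libraries were below all 6 others. Zscan4f replicate 1 was the closest to them. The means were 24.8 ± 3.10 TPM with Zscan4f, 31.0 ± 0.509 with Zscan4f3A and 31.6 ± 1.69 in control (SD, n = 3 each). Terf2 thus had little spread with Zscan4f3A, smaller than that of all but 5.17% of the tested genes in that group.

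By limma on log2(TPM + 1), Terf2 fell by 0.34 with Zscan4f against control (SE 0.08, 95% interval -0.53 to -0.15, Benjamini-Hochberg adjusted p = 0.022 over 15837 genes). It was lower by a log2 change of -0.32 with Zscan4f against Zscan4f3A (SE 0.08, 95% interval -0.51 to -0.13, adjusted p = 0.036). The change with Zscan4f3A against control was -0.03 (95% interval -0.22 to 0.17, adjusted p = 0.95), so a shift of the size seen with Zscan4f lies outside that interval. The comparisons against control share the same control libraries. The call against control was lost when control replicate 2 (0.076) or 3 (0.062) was left out, and when Zscan4f replicate 2 (0.077) or 3 (0.075) was. The call against Zscan4f3A was lost without any of 6 libraries, which were control replicate 3 (0.056), Zscan4f replicates 2 and 3 (0.11 each) and Zscan4f3A replicates 1 (0.076), 2 (0.078) and 3 (0.083), and also with no filter (0.077) and in a fit of the Zscan4f and Zscan4f3A libraries alone (0.074). Over 18 alternatives the log2 change stayed between -0.44 and -0.28 against control and between -0.42 and -0.26 against Zscan4f3A.

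**Figure D2:**
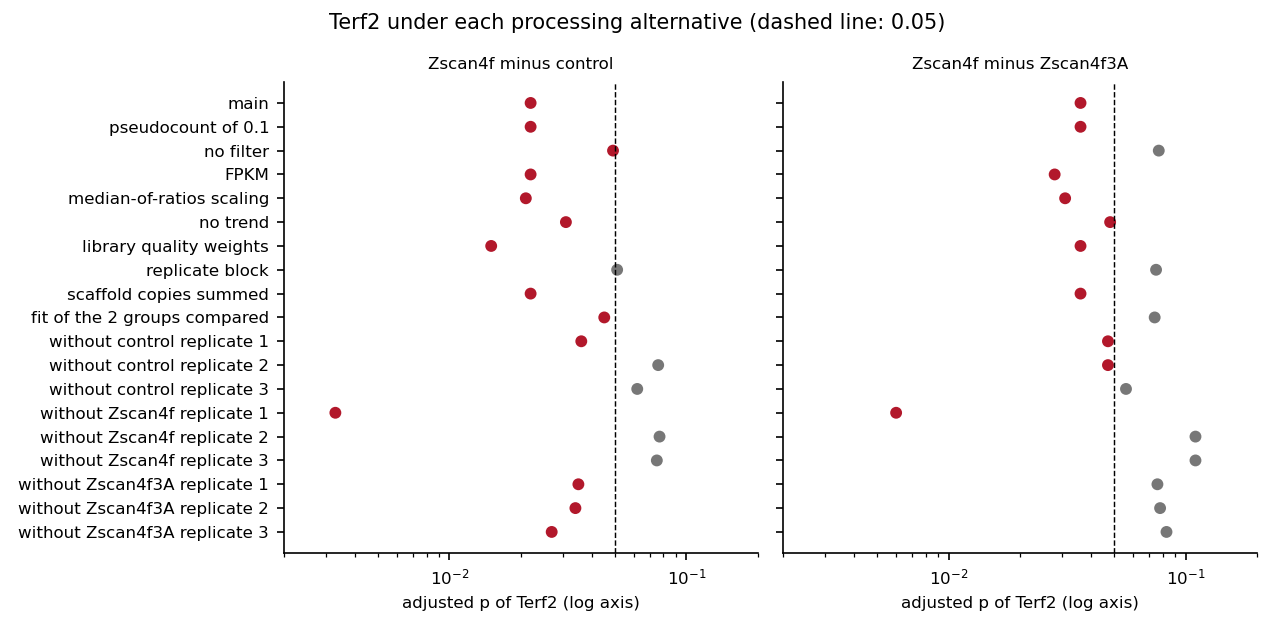
Each row is a processing alternative and the horizontal log axis is the adjusted p of Terf2, with red points under 0.05 and grey points above, for Zscan4f against control (left) and against Zscan4f3A (right). Of 18 alternatives, 13 kept the call on the left and 9 on the right, and the smallest values came without Zscan4f replicate 1.

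Of the 10 members, 1 was called with Zscan4f against control, a lower one, beside 18.5% of all tested genes called and 9.71% called lower. None (0 of 10) was called with Zscan4f3A against control, beside 0.0316% of all genes (0.0189% higher and 0.0126% lower). With Zscan4f against Zscan4f3A 1 was called, again a lower one, beside 15.1% called in all, 7.48% higher and 7.64% lower. At an unadjusted limma p under 0.05 there were 2, 1 and 2 of the 10 members in these comparisons, beside 4923, 1389 and 4677 of all 15837 tested genes. The share of members called was thus near or below the background. The libraries did not overlap for 2 members in each comparison, beside 38.2%, 15.4% and 34.8% of all tested genes. The members' median log2 change was -0.04 with Zscan4f against control, 0.03 with Zscan4f3A against control and -0.10 with Zscan4f against Zscan4f3A, and the medians over all tested genes were -0.003, -0.01 and 0.002. All 10 members passed the filter on low values, which required a TPM of at least 1 in at least 3 libraries.

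**Figure D3:**
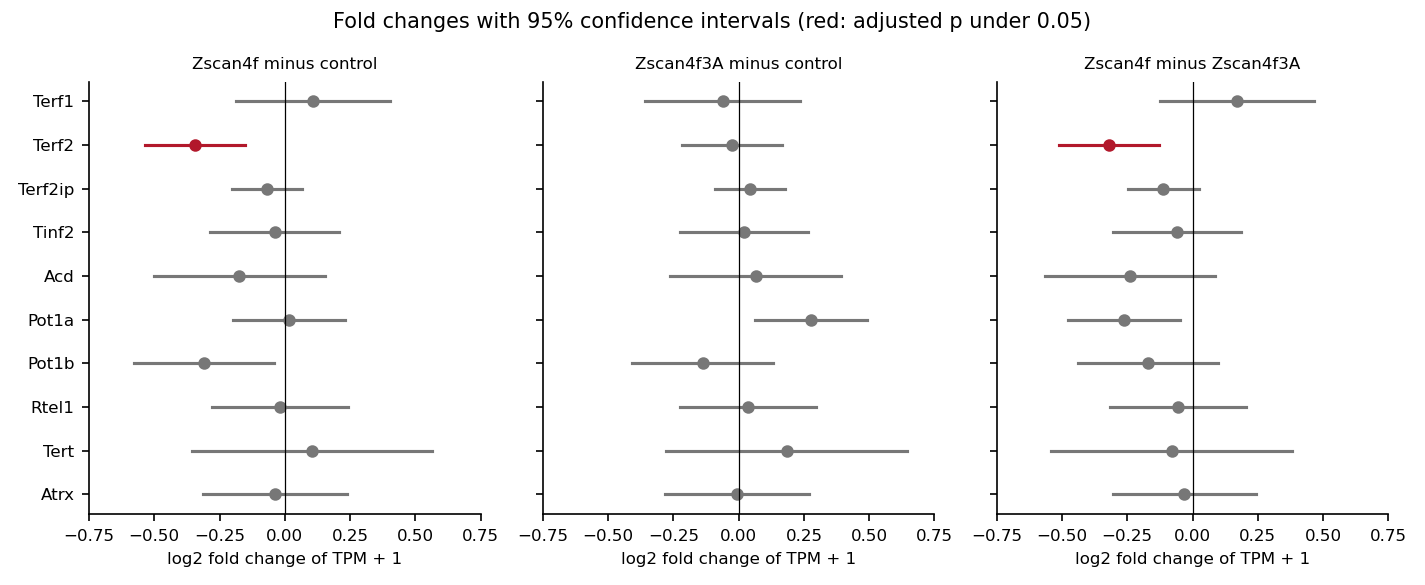
The log2 fold change of TPM + 1 (horizontal axis) is shown for each member with its 95% confidence interval, in 3 panels for the 3 comparisons, with calls in red. The intervals are not adjusted over genes: they exclude 0 for Terf2 and Pot1b on the left, for Pot1a in the middle and for Terf2 and Pot1a on the right, and Terf2 alone is called. Those of Tert are the widest, and Pot1b is its chromosome 17 entry.

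Among the other proteins on the duplex repeats, Terf1 (ENSMUSG00000025925.14, chromosome 1, 15805646 to 15844052, plus strand) encodes TRF1, which helps replication forks through the repeats. It stood at 18.5, 16.0 and 15.3 TPM with Zscan4f and 12.7, 16.4 and 14.9 TPM with Zscan4f3A, against 17.9, 15.1 and 13.1 TPM in control. The groups overlapped, and the log2 change with Zscan4f against control was 0.11 (95% interval -0.19 to 0.40, adjusted p = 0.64). Changes in Terf1 with Zscan4f from a fold of 0.878 to 1.32 thus lie within the interval. Terf2ip (ENSMUSG00000033430.10, chromosome 8, 112011398 to 112020528, plus strand) encodes RAP1, which is held at the telomere by TRF2. Its level was 34.0, 33.0 and 31.8 TPM with Zscan4f and 37.3, 35.9 and 33.8 TPM with Zscan4f3A, against 35.4, 32.4 and 36.0 TPM in control. The values overlapped, and the log2 change with Zscan4f was -0.07 against control (95% interval -0.20 to 0.07, adjusted p = 0.50) and -0.11 against Zscan4f3A (adjusted p = 0.25).

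The bridging subunits Tinf2 and Acd also overlapped in all groups. Tinf2 (ENSMUSG00000007589.9, chromosome 14, 55674689 to 55681820, minus strand) encodes TIN2, which ties TRF1 and TRF2 to the POT1 arm of the complex. It stood at 16.0, 15.2 and 16.5 TPM with Zscan4f and 17.5, 16.7 and 15.6 TPM with Zscan4f3A, against 19.2, 16.4 and 13.8 TPM in control, with a log2 change of -0.04 with Zscan4f against control (95% interval -0.29 to 0.21, adjusted p = 0.86). The control libraries of Tinf2 were the most spread of the groups, and the overexpressing libraries lay inside their range. Acd (ENSMUSG00000038000.10, chromosome 8, 105695860 to 105701102, minus strand) encodes TPP1, which joins POT1 to TIN2 and recruits telomerase. It stood at 21.7, 20.6 and 24.1 TPM with Zscan4f and 21.7, 24.6 and 33.9 TPM with Zscan4f3A, against 26.6, 24.0 and 24.7 TPM in control. The value of 33.9 is that of Zscan4f3A replicate 3, the library with the least sequence, and the log2 change with Zscan4f was -0.17 against control (95% interval -0.50 to 0.15, adjusted p = 0.47) and -0.24 against Zscan4f3A (adjusted p = 0.31).

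Tinf2 and Acd each share part of their sequence with a gene on the opposite strand, and whether the authors' estimates used strand is not stated, so reads there cannot be told apart. Gmpr2 overlaps Tinf2 over 4512 bases, and 26.5% of the 50-base stretches of Tinf2 transcripts also occur on the opposite strand, nearly all of them in Gmpr2. Gmpr2 averaged 28.6 TPM with Zscan4f and 25.9 with Zscan4f3A, against 23.0 in control (log2 change 0.30 with Zscan4f against control, adjusted p = 0.066). Carmil2 overlaps Acd over 2328 bases and holds 23.1% of its 50-base stretches, but averaged only 1.10 TPM with Zscan4f and 1.10 with Zscan4f3A, against 1.34 in control. Terf2 transcripts shared 0 such stretches with any other gene on either strand, and neither did those of Rtel1.

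The single-stranded overhang is bound by the POT1 proteins. Pot1a (ENSMUSG00000029676.15, chromosome 6, 25743737 to 25809246, minus strand) encodes the mouse protein that chiefly holds back ATR signalling. It stood at 15.5, 12.1 and 14.9 TPM with Zscan4f and 17.7, 16.5 and 17.1 TPM with Zscan4f3A, against 13.0, 14.1 and 14.7 TPM in control. The 3 Zscan4f3A libraries were above all 6 others. The log2 change of Pot1a with Zscan4f3A against control was 0.28 (SE 0.09, 95% interval 0.06 to 0.49), with an unadjusted p = 0.017 by limma and an adjusted p = 0.48. With Zscan4f against Zscan4f3A it was -0.26 (SE 0.09, unadjusted p = 0.022, adjusted p = 0.10), and with Zscan4f against control 0.02 (95% interval -0.20 to 0.23, adjusted p = 0.94).

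Pot1b encodes the mouse protein that limits the trimming of the end. Its chromosome 17 entry (ENSMUSG00000024174.8, 55652025 to 55712628, minus strand) stood at 3.11, 2.35 and 2.34 TPM with Zscan4f and 3.22, 3.26 and 2.65 TPM with Zscan4f3A, against 3.38, 3.50 and 3.44 TPM in control. Its scaffold entry (ENSMUSG00000098835.2, KB469742.1, 964596 to 1025199, minus strand) stood at 2.97, 2.31 and 2.26 TPM with Zscan4f and 3.07, 3.15 and 2.55 TPM with Zscan4f3A, against 3.18, 3.35 and 3.29 TPM in control. In both entries the 3 control libraries were above all 6 others and close together. The entries were near equal in every library, and how the authors' estimates divide reads between them is not stated in the sources used here.

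Summed over the entries, Pot1b averaged 5.11 ± 0.837 TPM with Zscan4f and 5.97 ± 0.666 with Zscan4f3A, against 6.71 ± 0.147 in control (SD, n = 3 each). For the chromosome 17 entry, the log2 change with Zscan4f against control was -0.31 (SE 0.12, 95% interval -0.58 to -0.04), with an unadjusted p = 0.029 by limma and an adjusted p = 0.11. The scaffold entry gave -0.29 (adjusted p = 0.13). The sum of the entries, an alternative chosen after seeing the data, gave an adjusted p = 0.076. With Zscan4f3A against control the chromosome 17 entry gave -0.14 (95% interval -0.41 to 0.13, adjusted p = 0.74).

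Ratios between shelterin genes were computed after the values were seen and are given as a description. Pot1a stood to Pot1b, summed over its entries, at 2.55, 2.60 and 3.23 with Zscan4f and at 2.82, 2.56 and 3.30 with Zscan4f3A, against 1.98, 2.07 and 2.19 in control. The ratio was thus higher in all 6 overexpressing libraries than in the 3 control libraries. Terf2 stood to Terf1 at 1.53, 1.46 and 1.48 with Zscan4f and at 2.42, 1.87 and 2.12 with Zscan4f3A, against 1.67, 2.20 and 2.40 in control. The Zscan4f libraries lay close together and below all others. The summed level of the 7 shelterin genes was 140.1, 124.9 and 129.8 TPM with Zscan4f and 143.9, 147.1 and 152.1 TPM with Zscan4f3A, against 148.5, 142.1 and 140.8 TPM in control, so the Zscan4f libraries were below all others in the sum, which Terf2 enters.

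**Figure D4:**
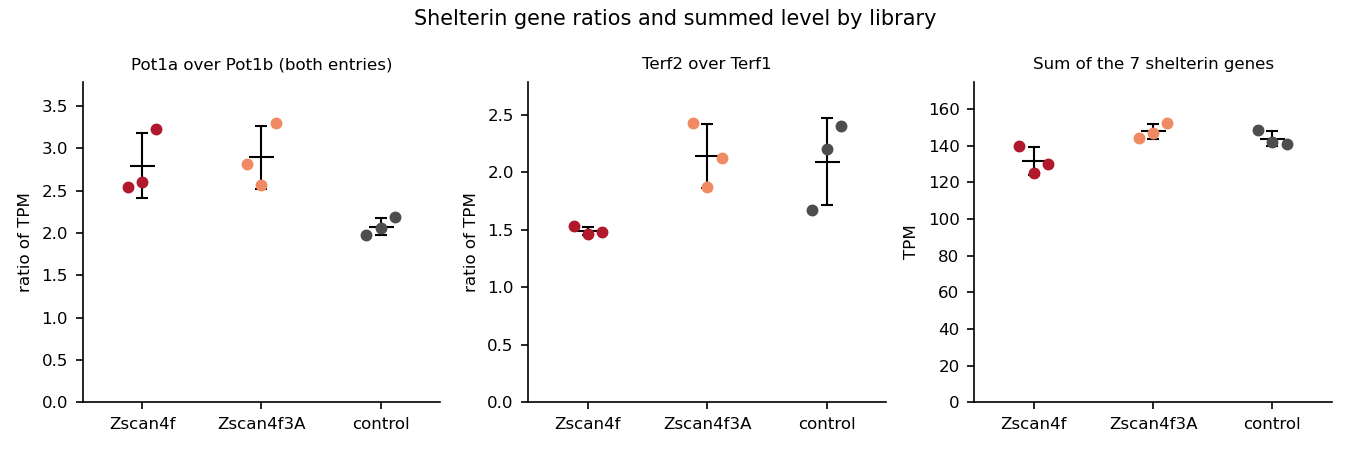
The panels plot by library, with mean ± SD of 3, the TPM of Pot1a over that of Pot1b, the TPM of Terf2 over that of Terf1, and the summed TPM of the 7 shelterin genes (all axes start at 0). Control libraries are lowest on the left at 1.98 to 2.19, and Zscan4f libraries are lowest in the middle at 1.46 to 1.53.

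Rtel1 (ENSMUSG00000038685.18, chromosome 2, 181319739 to 181356616, plus strand) encodes a helicase that opens the end loop and unwinds secondary structures. It stood at 19.6, 21.5 and 23.7 TPM with Zscan4f and 19.4, 22.3 and 26.1 TPM with Zscan4f3A, against 23.8, 21.3 and 20.6 TPM in control. The groups overlapped throughout, with a log2 change of -0.02 with Zscan4f against control (95% interval -0.28 to 0.24, adjusted p = 0.94) and 0.04 with Zscan4f3A against control (adjusted p = 0.95). Tert (ENSMUSG00000021611.9, chromosome 13, 73626911 to 73649843, plus strand) encodes the catalytic subunit of telomerase. Its level was 5.41, 5.20 and 7.36 TPM with Zscan4f and 5.67, 4.90 and 8.97 TPM with Zscan4f3A, against 4.77, 5.75 and 5.88 TPM in control. The highest value, 8.97, was again in Zscan4f3A replicate 3. The log2 change of Tert was 0.10 with Zscan4f against control (95% interval -0.36 to 0.57, adjusted p = 0.79) and 0.18 with Zscan4f3A against control (95% interval -0.28 to 0.64, adjusted p = 0.80), so folds up to 1.48 and 1.56 lie within the intervals.

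Atrx (ENSMUSG00000031229.16, chromosome X, 105797615 to 105929403, minus strand) encodes a remodeller that, with Daxx, places histone H3.3 at telomeres and is known for restraining recombination there. It stood at 71.2, 77.6 and 71.9 TPM with Zscan4f and 65.2, 74.6 and 87.2 TPM with Zscan4f3A, against 75.8, 65.5 and 86.5 TPM in control. Both other groups spread more widely than the Zscan4f libraries, which lay inside their ranges. The log2 change was -0.04 with Zscan4f against control (95% interval -0.31 to 0.24, adjusted p = 0.88), -0.01 with Zscan4f3A against control (adjusted p = 0.99) and -0.03 with Zscan4f against Zscan4f3A (adjusted p = 0.89).

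The spread between libraries set what could be seen for each member. In Zscan4f3A libraries the SD of log2(TPM + 1) was 0.40 for Tert and 0.32 for Acd, larger than for 90.0% and 85.7% of tested genes. The SD of Acd was 0.11 with Zscan4f and 0.07 in control. The fit shares a common spread per gene over the groups, so the Zscan4f3A libraries also widened these genes' intervals for Zscan4f against control. Over 18 alternatives the limma adjusted p of Acd in that comparison ran from 0.16 to 0.70. The median SD over tested genes was 0.10 with Zscan4f, 0.11 with Zscan4f3A and 0.10 in control. Pot1b in control had an SD of 0.020, and 4.94% of tested genes had a smaller SD.

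Genes that work with the members were taken from 7 lists of 96 names, of which 94 were found and 91 passed the filter. With Zscan4f against control, 4 of the 91 were higher and 1 was lower. With Zscan4f3A against control 0 were called, and with Zscan4f against Zscan4f3A 5 were higher and 0 lower. Among all tested genes, 8.74% were higher and 9.71% lower with Zscan4f against control, 0.0189% and 0.0126% with Zscan4f3A against control, and 7.48% and 7.64% with Zscan4f against Zscan4f3A, so the share of pathway genes called was below the background wherever genes were called among them. The telomerase list covers the RNA, the H/ACA proteins that stabilise it and assembly factors, and 2 of its 16 tested genes were higher with Zscan4f against control (median log2 change 0.02). In the list of the CST complex and primase, which refill the other strand, 0 of 7 were called (median 0.10). In the list of H3.3 chaperones and heterochromatin proteins 0 of 13 were called (median -0.02), and of the replication and end processing genes 0 of 22 (median 0.08). In the list of damage signalling and repair 2 of 22 were higher (median 0.10), and of other telomere binding proteins 1 of 9 was lower (median -0.05). Of the meiotic telomere attachment genes only Sun1 and Sun2 passed the filter, and neither was called. No list held more than 2 called genes in this comparison.

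Dkc1 (chromosome X, 75095854 to 75109777, plus strand) encodes dyskerin, which binds the telomerase RNA and other H/ACA RNAs. It stood at 32.3, 30.7 and 28.4 TPM with Zscan4f and 28.8, 28.1 and 32.0 TPM with Zscan4f3A, against 24.1, 22.8 and 22.9 TPM in control. All 6 overexpressing libraries were above all 3 control libraries. By limma Dkc1 rose by 0.37 with Zscan4f against control (SE 0.07, adjusted p = 0.006), a call kept in all 18 alternatives. With Zscan4f3A against control the log2 change was 0.34 (SE 0.07, 95% interval 0.18 to 0.49), with an unadjusted p = 0.00098 and an adjusted p = 0.30. The difference between the forms was 0.04 (95% interval -0.12 to 0.19, adjusted p = 0.76).

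The other H/ACA core proteins were Gar1, Nhp2 and Nop10, and the last 2 are named after their values were seen. Gar1 stood at 28.2, 26.1 and 26.0 TPM with Zscan4f and 22.7, 21.8 and 26.7 TPM with Zscan4f3A, against 20.7, 23.1 and 20.9 TPM in control, and rose by 0.30 with Zscan4f against control (SE 0.08, adjusted p = 0.037). The Gar1 call held in 10 of 18 alternatives, and the losses included no filter and leaving out control replicate 1 or 3, any of the 3 Zscan4f libraries or Zscan4f3A replicate 1 (adjusted p up to 0.12). Nhp2 averaged 83.1 ± 6.00 TPM with Zscan4f and 77.8 ± 7.31 with Zscan4f3A, against 70.7 ± 1.81 in control (SD, n = 3 each), a log2 change of 0.23 with Zscan4f against control (limma adjusted p = 0.067). Nop10 averaged 54.0 ± 2.75 TPM with Zscan4f and 48.1 ± 2.02 with Zscan4f3A, against 46.9 ± 3.88 in control (SD, n = 3 each), a log2 change of 0.20 (limma adjusted p = 0.074). Terc, the telomerase RNA, did not pass the filter. It stood at 0.240, 0.858 and 0.00 TPM with Zscan4f and 0.442, 0.430 and 0.266 TPM with Zscan4f3A, against 0.214, 0.188 and 0.325 TPM in control. Mature Terc is known to lack a poly(A) tail, and whether that bears on these values was not tested.

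In the repair list, Parp1, which encodes the poly(ADP-ribose) polymerase that marks DNA breaks, stood at 67.4, 65.6 and 66.0 TPM with Zscan4f and 58.9, 53.8 and 59.3 TPM with Zscan4f3A, against 53.5, 58.2 and 55.5 TPM in control. The Zscan4f libraries were above all others. Parp1 rose by 0.25 with Zscan4f against control (SE 0.05, adjusted p = 0.01, kept in all 18 alternatives) and was higher by 0.21 against Zscan4f3A (SE 0.05, adjusted p = 0.027). The second of these was lost without any of the 3 Zscan4f libraries or Zscan4f3A replicate 2 (adjusted p up to 0.084). Xrcc5, which encodes the larger Ku subunit, stood at 33.4, 35.3 and 33.2 TPM with Zscan4f and 30.9, 31.2 and 27.6 TPM with Zscan4f3A, against 28.5, 30.1 and 29.8 TPM in control. It rose by 0.20 with Zscan4f against control (SE 0.06, adjusted p = 0.048), and the call held in 1 of the 9 fits that left out a library (adjusted p up to 0.14) and was also lost with no filter (0.073) and with no trend of the prior variance (0.061).

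Mre11a, a nuclease that senses breaks, stood at 19.0, 15.6 and 17.2 TPM with Zscan4f and 13.2, 14.6 and 12.4 TPM with Zscan4f3A, against 14.6, 14.9 and 15.6 TPM in control. It was higher by 0.34 with Zscan4f against Zscan4f3A (SE 0.09, adjusted p = 0.03), and control lay between these groups. Without Zscan4f replicate 1 or 3 or Zscan4f3A replicate 1 or 3 the Mre11a call was lost (adjusted p up to 0.093), as it was with no filter (0.06) and in a fit of the Zscan4f and Zscan4f3A libraries alone (0.073). Lig3, a ligase of alternative end joining, was higher by 0.20 in the same comparison (29.8 ± 0.213 TPM with Zscan4f and 25.8 ± 1.09 with Zscan4f3A; SD, n = 3 each; limma adjusted p = 0.044), and that call held in 2 of the 9 fits that left out a library (adjusted p up to 0.12). Cbx5, which encodes the heterochromatin protein HP1 alpha, was higher by 0.15 (88.7 ± 2.46 TPM with Zscan4f and 79.9 ± 1.74 with Zscan4f3A; SD, n = 3 each; limma adjusted p = 0.034) and kept its call in 4 of those 9 fits (adjusted p up to 0.11). Hnrnpa1, which encodes an RNA binding protein that also binds telomere repeats and their transcripts, was higher by 0.30 (391 ± 6.02 TPM with Zscan4f and 318 ± 33.2 with Zscan4f3A; SD, n = 3 each; limma adjusted p = 0.042) and kept it in 3 of the 9 (adjusted p up to 0.12). Of all 18 alternatives, 6 kept the call of Lig3, 10 that of Cbx5 and 9 that of Hnrnpa1.

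Zfp827 was the pathway gene called lower with Zscan4f against control. Its product is known to recruit the NuRD complex to telomeres kept by recombination. It stood at 11.2, 10.3 and 7.51 TPM with Zscan4f and 13.4, 13.4 and 17.9 TPM with Zscan4f3A, against 19.7, 15.6 and 14.0 TPM in control. All Zscan4f libraries were below all others. Zfp827 fell by 0.71 with Zscan4f against control (SE 0.18, adjusted p = 0.024), and the change was -0.58 against Zscan4f3A (SE 0.18, adjusted p = 0.062). The call was lost with no filter and without control replicate 1 or 2 or Zscan4f replicate 2 or 3 (adjusted p up to 0.079).

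**Figure D5:**
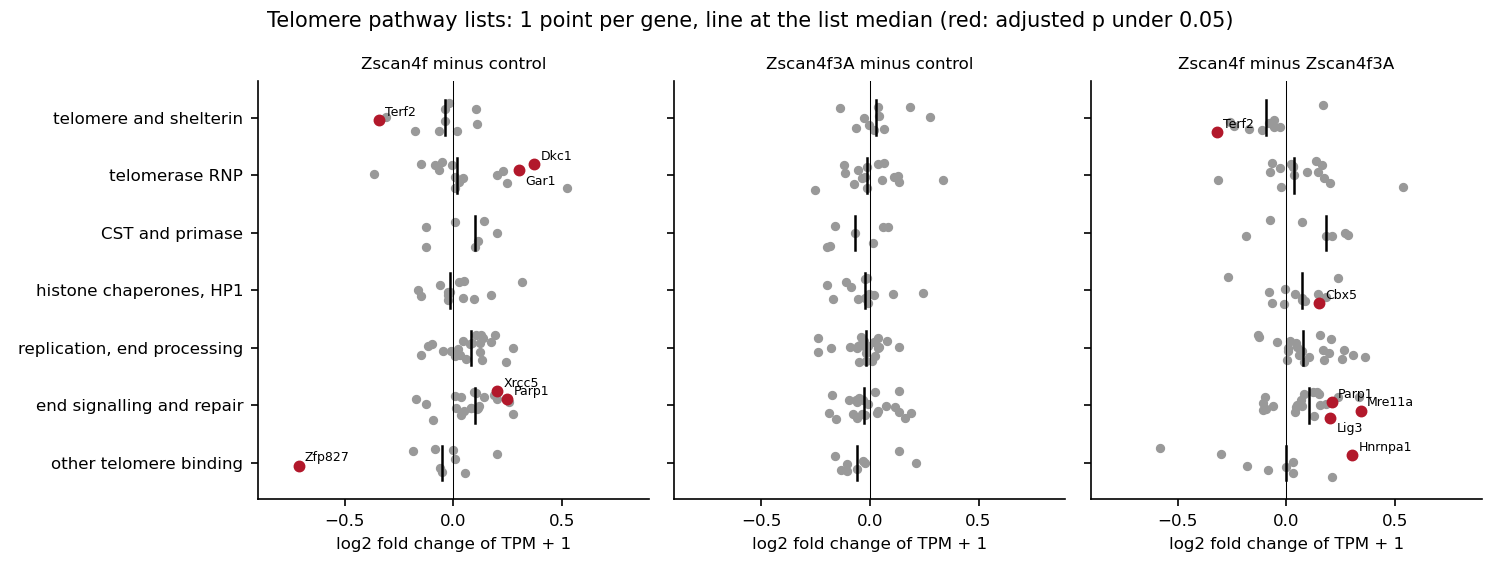
Each point is the log2 fold change of TPM + 1 of a gene in the member list (top) or in a list of telomere-related genes (the meiotic list is not drawn), with the list median as a line and called genes in red, in 3 panels for the 3 comparisons. The list medians lie between -0.05 and 0.10 on the left and reach 0.18 on the right, for the CST and primase list with 0 called genes. The middle panel holds 0 called genes, and Terf2 and Zfp827 lie at -0.34 and -0.71 on the left.

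Some genes of DNA replication and cell division were higher in the same comparisons. Of 16 such genes 7 were higher with Zscan4f against control, beside 8.74% of all tested genes, and they were Mcm2, Mcm3, Mcm4, Mki67, Pcna, Rrm2 and Top2a. The mitotic genes Ccnb1, Ccna2, Cdk1, Plk1, Aurkb and Bub1 were not called, with log2 changes from -0.01 for Plk1 to 0.34 for Ccnb1. Among the replication genes, Mcm5, Mcm6 and Mcm7 were not called either. With Zscan4f3A against control 0 of the 16 were higher, beside 0.0189%, and with Zscan4f against Zscan4f3A 8 were, beside 7.48%, with Aurkb among them. None (0 of 16) was lower in any comparison. Their summed level was 480.3 to 488.4 TPM with Zscan4f and 392.2 to 417.8 with Zscan4f3A, against 404.1 to 420.0 in control. The part of this difference in the levels of Parp1, Dkc1 and the other replication-linked genes was not tested.

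The genes whose pattern over the 9 libraries was most like that of Terf2 were H19, Dgkh and Hip1, each with a Pearson r of 0.97 among 10646 genes searched. This is a description over libraries that share their groups. H19, an imprinted long non-coding RNA, stood at 85.8, 62.3 and 54.4 TPM with Zscan4f and 88.8, 92.1 and 101.6 TPM with Zscan4f3A, against 98.4, 101.0 and 102.5 TPM in control. As for Terf2, Zscan4f replicate 1 was the highest of its group and still below the other 6 libraries. Dgkh, a diacylglycerol kinase gene, averaged 5.11 ± 0.675 TPM with Zscan4f and 6.74 ± 0.0967 with Zscan4f3A, against 6.64 ± 0.148 in control (SD, n = 3 each). Hip1, which encodes an endocytic adaptor, averaged 84.7 ± 3.79 TPM with Zscan4f and 92.8 ± 2.11 with Zscan4f3A, against 94.5 ± 2.06 in control (SD, n = 3 each).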

How the data were processed

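Total RNA of 9 fibroblast libraries was sequenced after TruSeq preparation, per the labels' protocols. Reads were aligned with HISAT2 2.1.0 and abundance was estimated with StringTie, per the submitters' processing notes, and the StringTie version, the genome build and the annotation are not stated in the sources used here. Of the 54079 gene IDs that the GENCODE M21 annotation of GRCm38 also holds, 97.7% had identical coordinates, so coordinates are given on GRCm38. TPM, as deposited by the authors, is corrected for length and has an equal sum in every library. FPKM, as deposited by the authors, is instead scaled by each library's fragments. The coverage deposited by the authors is a mean read depth and served, with FPKM, to estimate the sequence per library (3.31 to 8.39 gigabases). The files give no counts, so the depth behind a value is unknown and precision is given as the SD of 3 libraries. None of the 36 library pairs held identical values (0).

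Genes with a TPM of at least 1 in at least 3 libraries (15837) were fitted on log2(TPM + 1) with limma 3.58.1 in R 4.3.3, with 3 group means and a trend of the prior variance. A fold change on this scale understates the change of low genes. Tests were two-sided, and p-values were adjusted by Benjamini-Hochberg over all genes of a comparison, with calls under 0.05. Named were all members, the called genes of each pathway list, Terc and Dkc1, and the 3 genes most like a called member. Members and lists were chosen with earlier results of these data known. Alternatives were a pseudocount of 0.1, no filter, FPKM, median-of-ratios scaling, a fit of the compared groups, no trend, library quality weights, a replicate block, leaving out each library and, chosen after seeing the data, Pot1b entries summed. The code was tested on simulated data. Sequence tables were read with Python 3.11.15 and Biopython 1.88.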

Additional observations from a re-analysis of the deposited data

Results flagged for a closer look

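The response to the Zscan4f form differed from the response to the Zscan4f3A form for 1 member and 5 pathway genes, by the limma test of the difference itself (adjusted over 15837 genes, n = 3 libraries each). These are 1 of 10 members and 5 of 91 pathway genes, shares below the 15.1% of all tested genes called in this comparison. Terf2 was lower with Zscan4f than with Zscan4f3A by a log2 change of -0.32 (adjusted p = 0.036, lower in 3 of 3 Zscan4f libraries than in every Zscan4f3A library). Mre11a was higher with Zscan4f by 0.34 (adjusted p = 0.03), Hnrnpa1 by 0.30 (0.042), Parp1 by 0.21 (0.027), Lig3 by 0.20 (0.044) and Cbx5 by 0.15 (0.034). None of these 6 kept its call in all of its 18 alternatives, and Parp1, with 13, kept it most often. Against control, Terf2 and Parp1 were called with Zscan4f, and the other 4 were not. The cause of the differences was not tested.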

How the results depend on the processing

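The member called was Terf2 alone, and its call held in 13 of 18 alternatives against control and in 9 of 18 against Zscan4f3A. The count of members called changed with it. With Zscan4f against control it was 0 with a replicate block and 0 to 1 when a library was left out. With Zscan4f against Zscan4f3A it was 0 with no filter, with the replicate block and in the fit of the compared groups, and 0 to 1 when a library was left out. With Zscan4f3A against control it was 0 in every setting, while the calls over all genes were 3 with no filter, 1 with the block and 1 to 16 when a library was left out (16 without Zscan4f3A replicate 3). Calls over all genes with Zscan4f against Zscan4f3A ran from 1548, without Zscan4f replicate 3, to 2173 when a library was left out. Libraries of the same number did not deviate together (9 pairs, correlation -0.08 to 0.05, against -0.05 to 0.05 in 18 other pairs, and 5 of 9 libraries correlated best with one of their own number), so the numbers are not taken to pair the samples. With the block, limma gave Terf2 with Zscan4f an adjusted p of 0.051 against control and 0.075 against Zscan4f3A. The block also ended the calls of Gar1 (0.08) and Xrcc5 (0.066) against control and of Parp1 (0.066), Mre11a (0.071), Lig3 (0.063) and Cbx5 (0.08) against Zscan4f3A, while in these comparisons over all genes it called 2504 and 1883 genes. The cause of these shifts was not tested.

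Changes of sign occurred only in member results that were not called. Without a library, Zscan4f against control ran from -0.15 to 0.072 for Tinf2, from -0.032 to 0.18 for Tert, from -0.048 to 0.12 for Pot1a, from -0.14 to 0.060 for Atrx and from -0.086 to 0.046 for Rtel1 (log2). Zscan4f3A against control ran from -0.094 to 0.13 for Tinf2, from -0.039 to 0.34 for Tert, from -0.16 to 0.046 for Terf1, from -0.11 to 0.095 for Atrx, from -0.063 to 0.012 for Terf2, from -0.002 to 0.081 for Terf2ip, from -0.11 to 0.20 for Acd and from -0.069 to 0.14 for Rtel1. Zscan4f against Zscan4f3A ran from -0.23 to 0.14 for Tert, from -0.13 to 0.075 for Atrx and from -0.16 to 0.049 for Rtel1. With quality weights, Acd (-0.029) and Rtel1 (-0.019) turned in Zscan4f3A against control, and Tert (0.077), Atrx (0.018) and Rtel1 (0.009) in Zscan4f against Zscan4f3A. Atrx in Zscan4f3A against control turned with FPKM (0.017) and with median-of-ratios scaling (0.004).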
